A study of Mus musculus with 8 samples.

Results

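The acyl-CoA thioesterase genes were taken from the expression table by symbol, as the rows named Acot1, Acot2, Acot3, Acot4, Acot5, Acot6, Acot7, Acot8, Acot12 and Acot13. These are 10 of the 25124 rows of the table, and all 8 libraries were used for each. Livers came from C57BL/6 mice that were fasted overnight and then given vehicle or GW4064, a synthetic agonist of the bile acid receptor FXR, at 30 mg/kg for 1 h. RNA-seq had 2 vehicle and 2 GW4064 libraries, each made from liver RNA of 2 mice combined, so the 4 libraries came from separate mice. GRO-seq, in which nuclei extend engaged RNA polymerases in vitro and the nascent RNA is sequenced, had 1 library each for WT vehicle, WT GW4064, FXR KO vehicle and FXR KO GW4064. The labels call the genotypes WT and FXR KO. In the study's methods these are Fxr-Flox mice and their Fxr-LKO counterparts carrying Albumin-Cre, which deletes in hepatocytes and leaves FXR in most other cells of the liver. The vehicle is named DMSO in the labels and corn oil in the methods. The age of these mice is not given in the sources used here.

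Acyl-CoA thioesterases split the thioester bond of acyl-CoAs and release a free fatty or carboxylic acid and CoA, the reverse of what acyl-CoA synthetases do. The family holds unrelated protein folds that converged on this reaction. Acot1 to Acot6 are α/β-hydrolases, and Acot7, Acot8, Acot12 and Acot13 are hotdog-fold enzymes. The members also differ by place in the cell. Acot1 is cytosolic, Acot2 is mitochondrial, and Acot3, Acot4, Acot5, Acot6 and Acot8 are peroxisomal. Several of the mouse genes are known targets of PPARα, the nuclear receptor that drives the response of the liver to fasting, and all livers here were from fasted mice.

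Acot1 to Acot6 lie together on mouse chromosome 12 (mm10), from 83987861 to 84109783. All 6 are on the plus strand within 122 kb, in the order Acot2, Acot1, Acot4, Acot3, Acot5 and Acot6, with gaps between neighbouring rows of 7.42 to 24.6 kb. The other members are apart from them and from each other. Acot7 lies on chromosome 4 (152178100 to 152271855), Acot8 on chromosome 2 (164792768 to 164804881), and Acot12 and Acot13 on chromosome 13 (91741521 to 91786148 and 24817955 to 24831489). Each value is a read density over the whole row from start to end (RPKM, reads per kilobase of the row, scaled to library depth), so introns count. Introns made up 58.5% of the Acot3 row, the lowest share, and 98.4% of the Acot7 row, the highest.

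The 250 bases upstream of the annotated start are given for the 4 clustered genes with readily measured RNA and for Acot12, the member with the highest GRO-seq level in WT liver, since the results below turn on these genes. Sequences are from RefSeq (GRCm38.p6, the mm10 build), which had a promoter entry for 8 of the 10 members. Each runs 5′ to 3′ on the plus strand, which is the gene's own strand in all 5. Capitals mark the hexamer AGGTCA, the core to which many nuclear receptors bind, and CCAAT boxes, on either strand (TGACCT and ATTGG are their reverse complements).
Acot2, chr12:83987611-83987860: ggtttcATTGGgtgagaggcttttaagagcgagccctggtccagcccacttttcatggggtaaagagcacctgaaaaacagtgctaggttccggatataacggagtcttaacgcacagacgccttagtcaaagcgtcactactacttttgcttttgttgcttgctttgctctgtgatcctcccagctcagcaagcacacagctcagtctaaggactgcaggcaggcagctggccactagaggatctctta
Acot1, chr12:84009252-84009501: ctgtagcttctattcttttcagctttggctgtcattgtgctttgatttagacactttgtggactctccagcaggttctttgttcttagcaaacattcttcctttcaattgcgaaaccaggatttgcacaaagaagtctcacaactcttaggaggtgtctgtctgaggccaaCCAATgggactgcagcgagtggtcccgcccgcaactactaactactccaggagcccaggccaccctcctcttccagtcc
Acot4, chr12:84038129-84038378: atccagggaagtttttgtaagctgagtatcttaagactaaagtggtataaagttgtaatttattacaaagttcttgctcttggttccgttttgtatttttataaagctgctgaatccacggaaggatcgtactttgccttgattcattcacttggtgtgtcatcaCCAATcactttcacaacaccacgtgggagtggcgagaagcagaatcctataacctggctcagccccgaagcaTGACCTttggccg
Acot3, chr12:84051894-84052143: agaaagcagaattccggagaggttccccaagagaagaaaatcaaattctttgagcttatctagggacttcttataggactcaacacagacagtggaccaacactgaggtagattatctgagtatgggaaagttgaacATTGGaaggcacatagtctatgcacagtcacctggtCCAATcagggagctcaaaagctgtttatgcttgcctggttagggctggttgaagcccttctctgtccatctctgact
Acot12, chr13:91741271-91741520: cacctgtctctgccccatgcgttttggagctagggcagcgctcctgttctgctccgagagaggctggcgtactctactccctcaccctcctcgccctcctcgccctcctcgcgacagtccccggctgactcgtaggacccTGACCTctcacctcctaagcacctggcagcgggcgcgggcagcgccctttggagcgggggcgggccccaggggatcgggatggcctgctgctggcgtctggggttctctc

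The hexamer AGGTCA occurred on either strand in Acot4 (its first base 13 bases before the start), Acot12 (110 bases) and Acot5 (225 bases), and in 14.02% of 32851 mouse promoters of this length. Direct repeats AGGTCANAGGTCA, the element of PPARα with its partner RXR, and inverted repeats AGGTCANTGACCT, the element of FXR with RXR, were searched on both strands. The direct repeat contains the hexamer, and so does the inverted repeat. Neither occurred exactly in a member's window, and the shares over all promoters were 0.0335% and 0.00609%. With 1 mismatch allowed, the direct repeat was found in Acot12 alone among the 8, and in 0.484% of all promoters. The Acot7 window belongs to another start, 7508 bases inside its row. CCAAT boxes occurred in 33.8% of promoters on either strand. Acot1, Acot3 and Acot4 each had one on the gene strand 77 to 85 bases before the start, whereas the Acot2 box lay on the opposite strand at 244 bases. Boxes on the opposite strand were also present in Acot3 at 113 bases and in Acot5 at 104 bases. Acot8, outside the cluster, had boxes on the gene strand at 155, 115 and 61 bases. A CCAAT box on the gene strand 70 to 90 bases before the start was present in 3.02% of promoters. That window was chosen after the sequences had been seen.

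The clustered genes are also alike in their coding sequence, and this bears on how reads were assigned to them. Coding identity over aligned bases ran from 75.9% to 95.6% over the 15 pairs of clustered genes and was highest for Acot1 with Acot2. In the GENCODE transcripts, 16.5% of the 100-base windows of Acot1 (the RNA-seq read length) were found unchanged in Acot2. In total 21.9% of Acot1 windows were found in another member, against 17.1% for Acot2, 8.32% for Acot5, 4.44% for Acot3, 1.82% for Acot6 and 0.36% for Acot4. At the GRO-seq read length of 80 bases the shares were 25.6% for Acot1 and 20.1% for Acot2. No window of Acot7, Acot8, Acot12 or Acot13 was found in another member. Reads from the shared stretches of Acot1 and Acot2 cannot be told apart, so the values of that pair are uncertain. Acot5 shared 7.33% of its 100-base windows with Acot3 and 5.14% with Acot1. Those genes had far more reads than Acot5, so a few misassigned reads would weigh heavily on Acot5. How the study's counting treated reads with several matches is not given in the sources used here, and introns were not compared. The shares are of whole transcripts, parts of which lie outside the counted rows. The row held 2325 of the 6203 transcript bases of Acot4, 1558 of 2272 for Acot1 and 1822 of 3388 for Acot6. Transcripts of genes outside the family also hold some of these windows. Of Acot8 windows 13.8% were found in Snx21, of Acot4 windows 8.83% in 4732463B04Rik, and of Acot3 windows 6.42% in 4732463B04Rik and 9.90% in Gm49366.

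**Figure D1:**
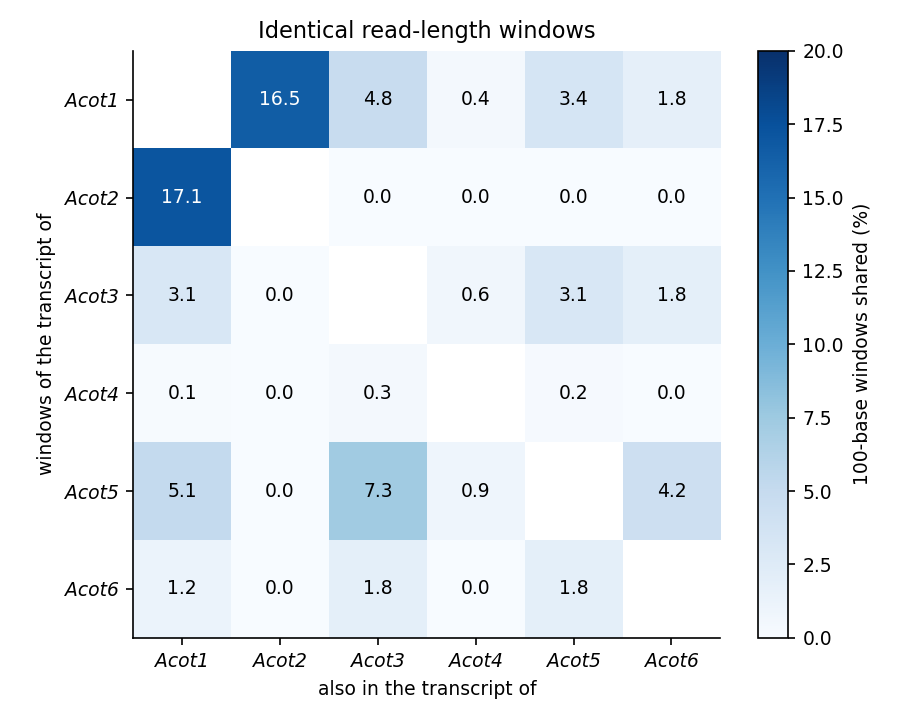
Share (%) of the 100-base windows of each clustered gene's transcript (rows) that occur unchanged in the transcript of another clustered gene (columns). Acot1 and Acot2 share the most, with 16.5% of Acot1 windows and 17.1% of Acot2 windows, and Acot4 shares under 1% with any other member.

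Rebuilt library totals were 13924467 to 14047227 reads in RNA-seq and 5069399 to 14173737 in GRO-seq, where both KO libraries were the shallower ones. Nr1h4, the gene of FXR, was not lower in the libraries labelled FXR KO: its GRO-seq level was 15.1 RPKM in WT vehicle, 4.23 in WT GW4064, 16.7 in KO vehicle and 20.6 in KO GW4064. The row spans the whole gene, and the deleted part is not given in the sources used here, so this level checks nothing about the deletion. The study examined FXR protein in Fxr-Flox and Fxr-LKO livers separately, outside the data used here. The FXR targets Nr0b2 and Abcb11 separated the genotypes, with 36.6 and 56.0 RPKM in WT GW4064 against 1.19 and 1.58 in KO GW4064. With vehicle they had 3.65 and 4.61 RPKM in WT and 0.118 and 1.204 in KO. Nr0b2 was thus low in the libraries labelled KO but still higher with GW4064 there (log2 2.57, beside 3.29 in WT). For Abcb11 the log2 ratios were 0.36 in KO and 3.57 in WT. These ratios hold an added 0.1 RPKM, close to the Nr0b2 level of 0.118 RPKM in KO vehicle. That shrinks the KO ratio of Nr0b2, so the genotypes cannot be ranked by it. All 8 hepatocyte markers were detected in every library. Their summed GRO-seq level was 606 to 675 RPKM in the WT libraries and 966 to 1002 in the KO libraries, and the part of this in the comparisons of genotype below was not tested. In bulk liver, fewer cells of a type and less RNA per cell cannot be told apart.

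Among the 10 members, Acot4, Acot1 and Acot12 had the highest RNA-seq levels in vehicle-treated liver. These levels are densities over whole rows, so their order is not an order of mature RNA. Exons made up 41.5% of the Acot3 row, 36.6% of Acot4 and 19.1% of Acot1, but 6.83% of Acot12 and 5.07% of Acot13. Acot4, which hydrolyses succinyl-CoA and other dicarboxylyl-CoAs in peroxisomes, averaged 8.003 ± 1.05 RPKM (SD, n = 2). Acot1, the cytosolic long-chain enzyme, averaged 7.31 ± 0.53, and Acot12, the cytosolic acetyl-CoA hydrolase of liver, 7.03 ± 0.078. The library values of these 3 overlapped between neighbours. Acot2, Acot3 and Acot8 followed at 3.80, 3.37 and 3.02 RPKM, and again neighbours overlapped. Acot13, a partner of the lipid transfer protein Pctp, came next at 1.98 RPKM, apart from Acot8 and from Acot7 at 0.489 RPKM. Acot7 is best known from brain. Acot6 (0.098 RPKM) and Acot5 (0.0055 RPKM) were at the bottom. With GW4064 the order was Acot1, Acot4, Acot12, Acot3, Acot2, Acot8, Acot13, Acot7, Acot6 and Acot5. Acot1 overlapped with Acot4 and Acot3 with Acot2, and all other neighbours were apart.

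In GRO-seq the order differed, and Acot12 was the highest member in WT liver at 7.47 RPKM with vehicle. Acot4 had 4.22 and Acot1 3.33 RPKM in that library, and Acot2 and Acot3 had 1.15 and 1.16. The log2 of RNA-seq over GRO-seq level in vehicle-treated WT liver was 0.91 for Acot4, 1.11 for Acot1, 1.46 for Acot3 and 1.64 for Acot2. All 4 were above the upper quartile of 0.84 over 9992 genes past the filters of both assays, whose median was 0.38. Acot8 (0.58) and Acot13 (0.42) were nearer that median, and Acot12 (-0.09) lay below the lower quartile of 0.02. The assays used different mice and library methods, so these ratios give no scale. Rows also differ in their share of introns, and the part of this in the ratios was not tested.

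**Figure D2:**
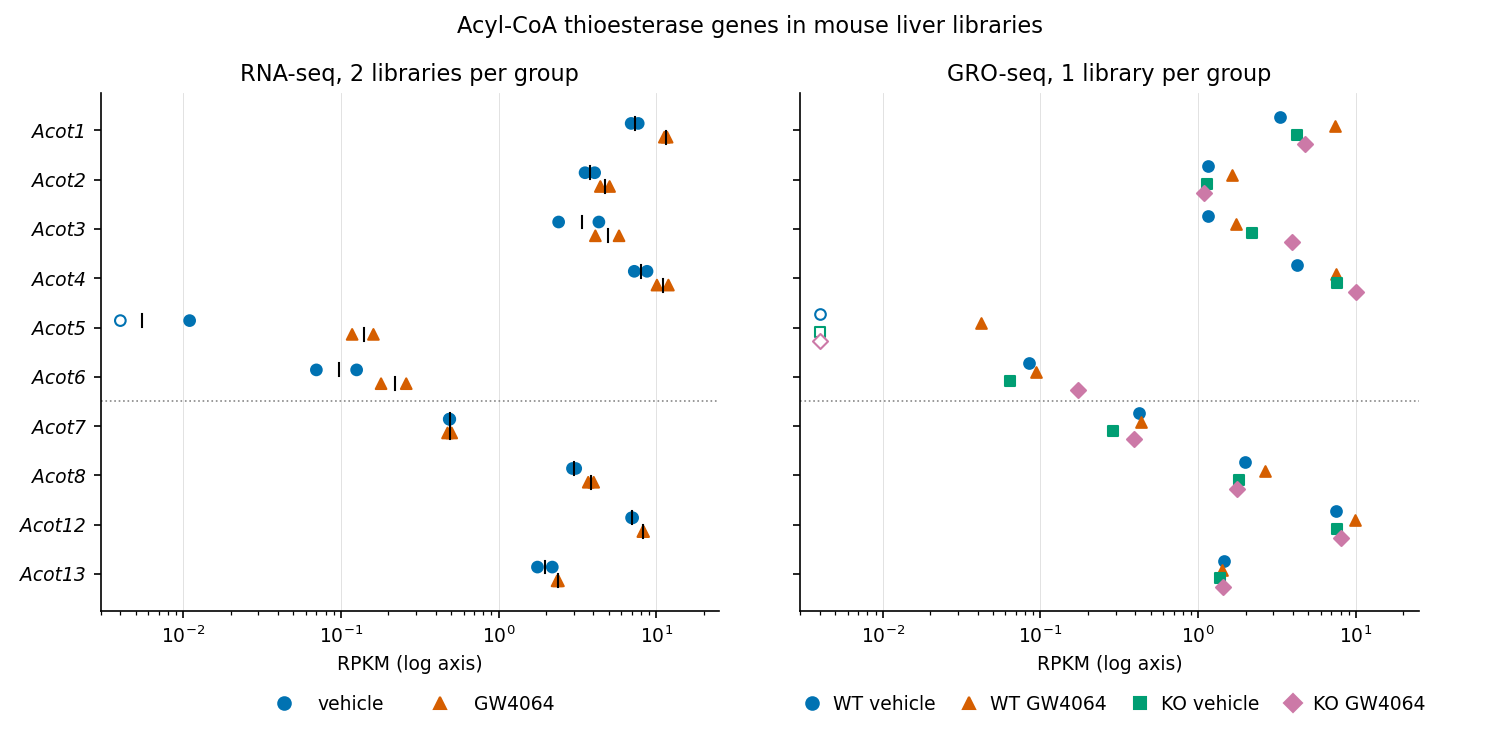
Level (RPKM, log axis) of each thioesterase gene in every library, with RNA-seq on the left (points are libraries, black ticks group means, n = 2) and GRO-seq on the right (1 library per group). Open symbols at the left edge are values of 0, and the dotted line separates the clustered genes from the others. Acot4, Acot1 and Acot12 lie highest, Acot5 and Acot6 lowest.

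To ask which thioesterase genes respond to GW4064 within 1 h, the RNA-seq groups were compared with limma over the 11408 genes whose mean reached 0.5 RPKM. Acot1 was the 1 member that passed an adjusted p of 0.05, and it rose; 3.28% of genes tested passed, and 2.13% passed and were higher. Of the 10 members, 7 were tested, and Acot5, Acot6 and Acot7 were below the filter. Every fitted change of the 7 was positive, from 0.23 to 0.65 (log2), with a median of 0.35 against -0.003 over all genes tested. Both GW4064 libraries were above both vehicle libraries in 8 of the 10 members, the exceptions being Acot3 and Acot7, and in 6 of the 7 tested. Over all genes tested 26% had this order, and 20.8% of the rows with a read. Before adjustment 5 of the 7 had p under 0.05 and were higher, as 10.6% of all genes tested were (limma).

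Acot1 measured 7.69 and 6.94 RPKM in the vehicle libraries and 11.7 and 11.3 RPKM in the GW4064 libraries. Both GW4064 values lay well above both vehicle values. The change was 1.57-fold (95% interval 1.35 to 1.82; log2 0.65, SE 0.076; adjusted p = 0.0429, limma). The call stood close to the threshold and was lost when any of the 4 libraries was left out, at adjusted p = 0.139 to 0.188 with log2 changes of 0.57 to 0.72 (limma). Limma-voom on rebuilt reads gave the same change of 0.65 with an adjusted p of 0.00599.

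Acot4 measured 8.75 and 7.26 RPKM with vehicle and 10.1 and 11.9 RPKM with GW4064. The groups did not overlap, but the libraries of each group differed by more than those of Acot1, and the change of 1.37-fold (1.05 to 1.80) had an adjusted p of 0.188 (limma). Acot2, which acts on long-chain acyl-CoAs inside mitochondria, measured 4.07 and 3.54 RPKM with vehicle and 5.06 and 4.42 RPKM with GW4064. Its groups were separate by a small margin, with a change of 1.24-fold (1.00 to 1.54; adjusted p = 0.234, limma). Acot3 measured 4.33 and 2.41 RPKM with vehicle and 4.11 and 5.81 RPKM with GW4064. It was the most variable member past the filter, its groups overlapped, and its fitted 1.498-fold change had an interval from 0.76 to 2.94 (adjusted p = 0.417, limma).

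The reads of the clustered genes were also summed, so that the split of reads among their rows matters less. Reads that were dropped, or counted in several rows, would still affect the sum. The 6 rows together had 2503 and 2031 reads with vehicle and 3172 and 3423 with GW4064. The sum changed by 0.54 (log2, 95% interval 0.19 to 0.89) with an adjusted p of 0.134 (limma). With limma-voom on the same sum, chosen after seeing the data, the change was 0.55 and passed at an adjusted p of 0.0396.

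Acot5 and Acot6 were near the lower end of the range, and their read numbers describe them better than RPKM. Acot5 had 0 and 1 reads in the vehicle libraries and 15 and 11 in the GW4064 libraries, or 26 against 1 in all. The ratio was 26.1 with a 95% counting interval of 4.28 to 1069. Acot6 had 16 and 9 reads with vehicle and 33 and 23 with GW4064, a ratio of 2.25 (1.38 to 3.76). Both genes were higher in both GW4064 libraries. The intervals cover counting error only and not the spread between libraries, nor reads that may belong to other members with shared stretches. Limma-voom with no filter, chosen after seeing the data, called neither gene.

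Outside the cluster, the 3 tested genes had fitted changes of 0.23 to 0.35 (log2), and none passed the test with limma. Acot8, the broad-range peroxisomal enzyme, measured 3.09 and 2.94 RPKM with vehicle and 4.01 and 3.71 RPKM with GW4064. Its 1.27-fold change (1.11 to 1.45) had an adjusted p of 0.101 with limma, and passed at 0.0411 with limma-voom, which called 8.79% of genes tested and 4.58% as higher. The Acot8 row shares its last 2 bases with Snx21, a gene on the other strand whose own change was 0.04 (log2). Acot12 measured 6.98 and 7.09 RPKM with vehicle and 8.23 and 8.32 RPKM with GW4064. The replicates lay close together, and the 1.17-fold change (1.061 to 1.299) had an adjusted p of 0.127 (limma). Its row overlaps 351 bases of 4833422C13Rik, on the other strand, which changed by 0.04 (log2). Acot13 measured 1.77 and 2.19 RPKM with vehicle and 2.35 and 2.40 RPKM with GW4064, a change of 1.196-fold (0.953 to 1.503; adjusted p = 0.318, limma). Acot7 measured 0.487 and 0.491 RPKM with vehicle and 0.505 and 0.475 RPKM with GW4064. Its 1283 vehicle and 1282 GW4064 reads gave a ratio of 1.00 with a counting interval of 0.93 to 1.08.

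As a group, the clustered genes had a median change of 0.52 over the 4 tested and the others 0.26 over the 3 tested. Of the clustered genes 1 of 4 passed the test and of the others 0 of 3, against 3.28% of all genes. At an unadjusted p under 0.05 the counts were 3 of 4 and 2 of 3, all higher, against 10.6% of all genes (limma). Limma-voom called 1 gene in each group, Acot1 and Acot8, and 8.79% of all genes. The intervals of single genes in the groups overlapped, and the difference between the groups was not tested.

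The GRO-seq libraries show the same genes at the level of nascent RNA, in libraries labelled WT and FXR KO. There is 1 library per condition, so no test was possible, and the intervals given are counting intervals. Among the 7 members with a mean of 0.5 RPKM or more over the 4 libraries, Acot1 and Acot4 were at least 1.5-fold higher with GW4064 in WT liver, and none was at least 1.5-fold lower. Of 9690 genes with enough reads 6.4% were that much higher and 7.17% that much lower. In KO liver Acot3 alone was at least 1.5-fold higher and none lower, where the shares over all genes were 2.88% and 3.44%. The median log2 ratio over the members was 0.48 in WT and 0.09 in KO, against -0.09 and -0.02 over all genes past the filter.

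Acot1 went from 3.33 to 7.41 RPKM with GW4064 in WT liver and from 4.26 to 4.78 RPKM in KO liver. The ratios were 2.23 (1.96 to 2.53) from 641 and 385 reads and 1.12 (0.91 to 1.38) from 198 and 179 reads. The WT GW4064 library had the highest level of the 4. The WT ratio exceeded the KO ratio by 0.99 on the log2 scale (counting interval 0.65 to 1.33), the widest separation of the genotypes among the members past the filter.

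Acot4 went from 4.22 to 7.49 RPKM in WT and from 7.57 to 10.01 RPKM in KO. Its ratios of 1.78 (1.55 to 2.03) and 1.32 (1.12 to 1.57) were both above 1, and they differed by 0.43 (log2; 0.12 to 0.73). Acot3 went from 1.16 to 1.73 RPKM in WT and from 2.19 to 3.92 RPKM in KO. Its ratios were 1.49 (1.17 to 1.89) and 1.79 (1.38 to 2.33), and the interval of their difference included 0 (-0.27; -0.76 to 0.23). Acot3 and Acot4 were thus higher with GW4064 in both genotypes, beyond counting error. Acot2 went from 1.15 to 1.65 RPKM in WT and from 1.13 to 1.08 RPKM in KO. With 33 and 35 reads in the KO libraries, its difference of 0.58 had a counting interval of -0.21 to 1.38.

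Outside the cluster, Acot12 had by far the most reads and so the tightest values. It went from 7.47 to 9.83 RPKM in WT and from 7.59 to 8.09 RPKM in KO, with ratios of 1.32 (1.26 to 1.37) and 1.07 (1.00 to 1.14) that differed by 0.30 (log2; 0.19 to 0.42). Acot8 went from 1.98 to 2.63 RPKM in WT and from 1.81 to 1.78 RPKM in KO, and the genotypes differed by 0.44 (0.01 to 0.88). Acot13 was level at 1.45 and 1.42 RPKM in WT and 1.38 and 1.43 RPKM in KO. Acot7, below the filter, had 0.419 and 0.436 RPKM in WT and 0.290 and 0.391 RPKM in KO. Its ratios were 1.04 (0.92 to 1.18) and 1.35 (1.08 to 1.69). The KO ratio was thus the higher one, and the difference was -0.37 on the log2 scale (-0.74 to -0.009). Acot5 had 3 reads in WT GW4064 and 0 in the other 3 libraries, and a count of 0 allows up to 3 reads. Acot6 had 11, 9, 3 and 8 reads, so no difference was detectable at this depth for either.

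**Figure D3:**
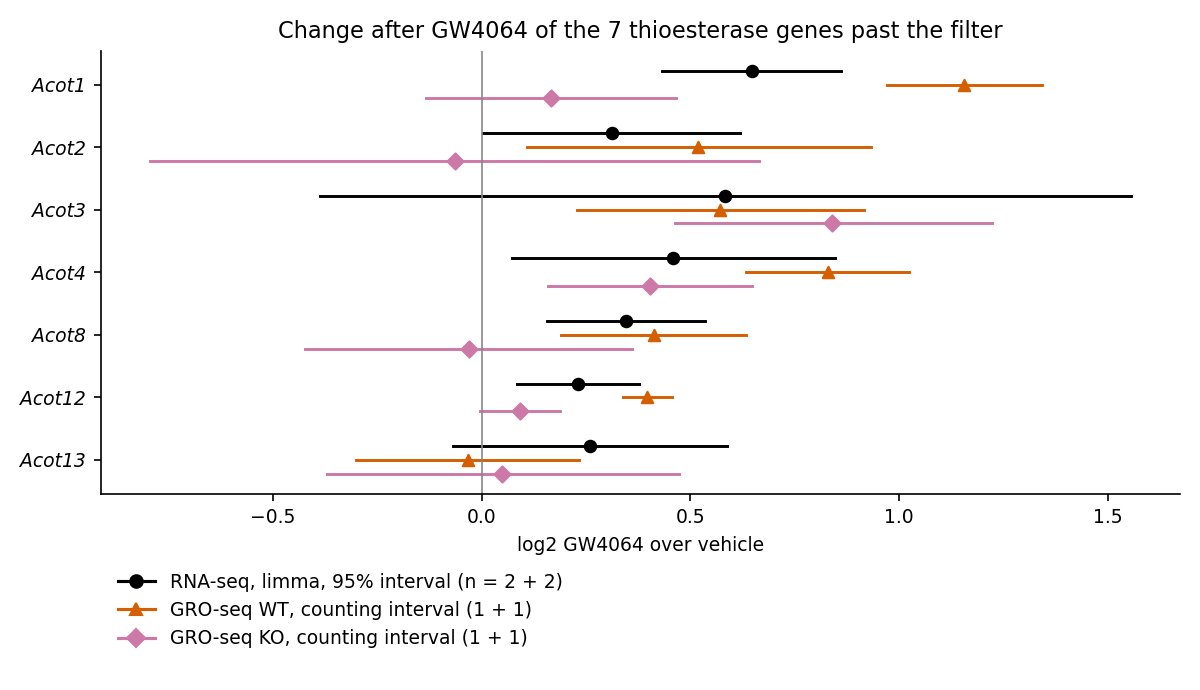
Change after GW4064 (log2 GW4064 over vehicle, horizontal axis) of the 7 thioesterase genes past the filters. Black points are RNA-seq changes with 95% intervals from limma (2 libraries per group), triangles WT and diamonds KO GRO-seq ratios with no pseudocount and 95% counting intervals (1 library per group). Acot1 lies farthest right in WT GRO-seq and near 0 in KO, whereas Acot3 and Acot4 lie right of 0 in both genotypes.

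Without GW4064, the neighbours Acot3 and Acot4 also separated the genotypes. In vehicle-treated liver Acot3 was 1.89-fold (1.43 to 2.47) and Acot4 1.80-fold (1.52 to 2.11) higher in the library labelled KO than in WT. These were the 2 of 7 members at least 1.5-fold higher, and none was lower by that much, against 6.14% of genes higher and 6.08% lower. Acot1 was 1.28-fold higher (1.07 to 1.53), and Acot2 was level at 0.98 (0.65 to 1.46). Acot8, Acot12 and Acot13 had ratios of 0.92, 1.02 and 0.95, and their intervals included 1. Acot7, below the filter, was lower in KO at 0.69 of WT (0.57 to 0.84). With GW4064, Acot3 was 2.27-fold higher in KO (1.81 to 2.85) and Acot1 was lower at 0.65 of WT (0.55 to 0.76), where 6.88% of genes were higher and 8.24% lower by 1.5-fold. Acot2 at 0.66 (0.43 to 0.98), Acot8 at 0.67 (0.54 to 0.84) and Acot12 at 0.82 (0.78 to 0.87) were also below WT by more than counting error. Acot4 was above WT at 1.34 (1.16 to 1.54). Each comparison of genotypes rests on 1 library a side, and those libraries also differed in the summed hepatocyte markers given above. Of these 8 markers 4 were at least 1.5-fold higher in KO than in WT with vehicle, and 0 were that much lower. Albumin was higher by 0.73 (log2) and Apoa1 by 1.28, whereas Ttr was at 0.04, Serpina1c at -0.13 and Hnf4a at -0.16.

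Along the cluster, the ratios were also taken over summed rows. The 6 rows summed had a WT log2 ratio of 0.90 (0.79 to 1.02) and a KO log2 ratio of 0.40 (0.24 to 0.56). Acot3 and Acot4, whose rows are 7.42 kb apart, had a summed KO ratio of 0.54 (0.33 to 0.74), and Acot1, 20.7 kb before Acot4, had 0.17 (-0.13 to 0.47), and these intervals overlapped. In WT the same log2 ratios were 0.76 (0.60 to 0.93) and 1.16 (0.97 to 1.34), which did not overlap. The 4 nearest rows outside the cluster all had lower WT GRO-seq levels with GW4064 than with vehicle. Riox1, 34.9 kb before Acot2, had GRO-seq levels of 1.11 and 0.81 RPKM in WT vehicle and GW4064 and an RNA-seq change of 0.08 (log2; adjusted p = 0.628, limma). Numb, farther upstream, had 3.21 and 2.74 RPKM and an RNA-seq change of -0.25 (adjusted p = 0.153, limma). Dnal1 and Pnma1, after Acot6, were below the filters, at 0.172 and 0.269 RPKM in WT vehicle GRO-seq and 0.142 and 0.160 with GW4064.

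**Figure D4:**
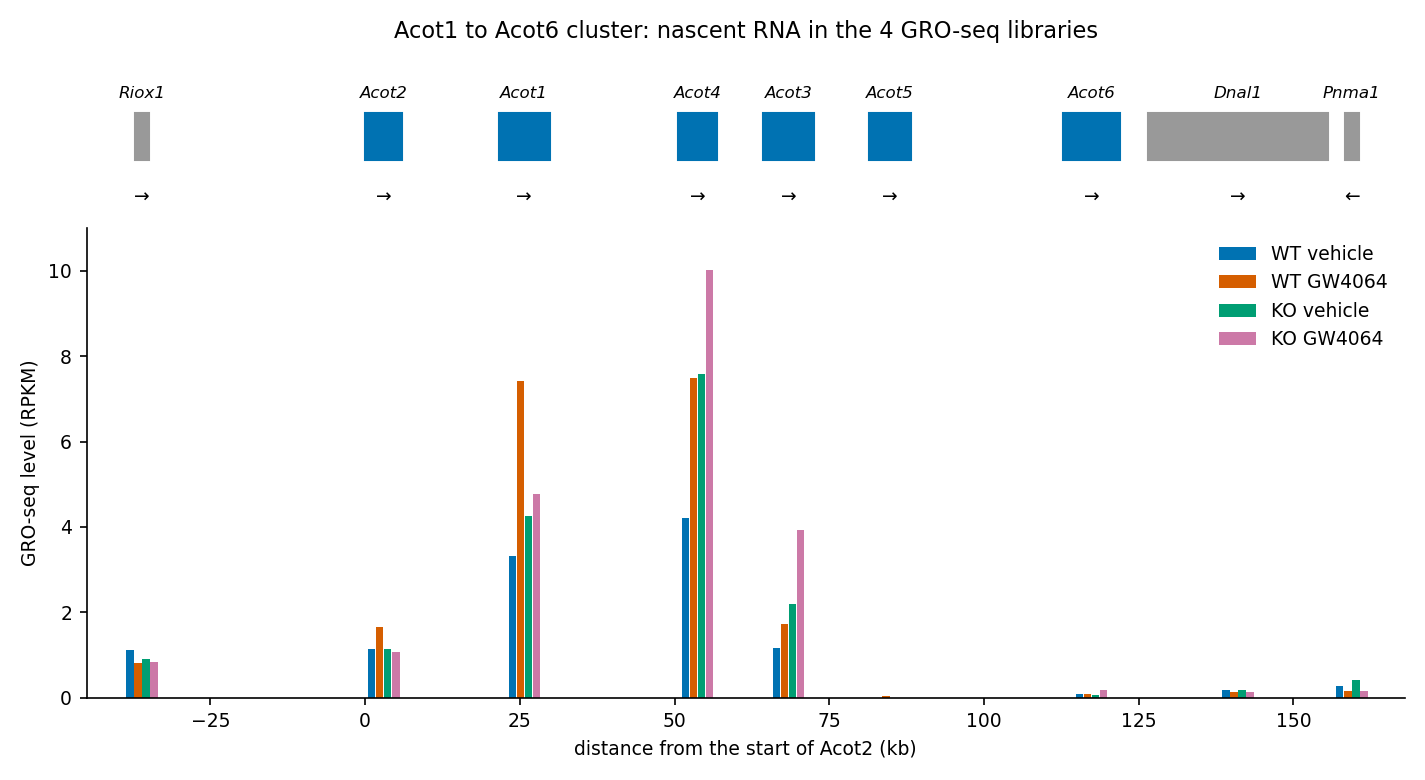
Map of the Acot1 to Acot6 cluster and its nearest neighbours (boxes to scale, arrows give the strand) above the GRO-seq level of each gene in the 4 libraries (RPKM, bars, 1 library each; horizontal axis in kb from the start of Acot2). Acot1 is highest in WT GW4064, at 7.41 RPKM, and Acot4 and Acot3 are highest in KO GW4064, at 10.01 and 3.92 RPKM.

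Other genes that make, carry or use acyl-CoAs were counted from gene lists in the same RNA-seq fit. Of 12 other thioesterases tested, 0 rose and 1 fell (limma): Baat, which conjugates bile acids to amino acids and is related in sequence to the α/β-hydrolase Acots, went from 13.5 and 13.9 RPKM to 9.16 and 9.76 RPKM (log2 -0.53, adjusted p = 0.0429). Them4, a hotdog-fold thioesterase, changed by -0.36 (adjusted p = 0.0801) and Them7 by 0.30 (adjusted p = 0.112, limma). Before adjustment 2 of the 12 were higher and 2 lower at p under 0.05, and limma-voom called 1 higher and 2 lower. The list median was -0.02, beside 0.35 for the 7 Acot genes tested.

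Of 16 acyl-CoA synthetases tested, which run the opposite reaction, 0 passed the test in either direction with limma, and 2 fell with limma-voom. Before adjustment 1 was higher and 4 were lower at p under 0.05 (limma). Their median change was -0.15 in RNA-seq, and in GRO-seq -0.34 in WT and -0.03 in KO. Aacs, the acetoacetyl-CoA synthetase, had the lowest p, with a change of -0.63 (adjusted p = 0.125, limma). Of 18 genes that make or break down CoA 0 passed with limma, with a median of -0.01; 2 were higher and 2 lower before adjustment, and limma-voom called 1 lower. Of 14 carriers of fatty acids and acyl-CoA 0 passed with limma, 2 rose with limma-voom, 4 were higher and 0 lower before adjustment, and the median was 0.20. In that list the lipid droplet coat gene Plin2 changed by 0.65 (adjusted p = 0.0993) and Fabp1 by 0.31 (adjusted p = 0.142, limma).

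Of 30 genes known as fasting-responsive targets of PPARα, a list that holds Ppara itself, 2 rose and 1 fell (limma), and limma-voom called 8 higher and 1 lower. Before adjustment 13 were higher and 2 lower at p under 0.05 (limma), where 10.6% of all genes tested were higher. The risers were the peroxisomal β-oxidation genes Ehhadh, from a mean of 10.4 to 19.1 RPKM (log2 0.88, adjusted p = 0.0195), and Acaa1b, from 26.1 to 44.8 RPKM (log2 0.77, adjusted p = 0.0254). Ppara went from 12.3 to 8.93 RPKM (log2 -0.46, adjusted p = 0.0492, limma). The list median was 0.21 in RNA-seq, and in GRO-seq 0.33 in WT and 0.09 in KO, beside 0.35, 0.48 and 0.09 for the thioesterase members. The lists and the members share the same control libraries, so these values are set side by side only. Hal, a periportal hepatocyte marker, rose by 1.21 and Slc1a2, a pericentral one, fell by 0.59 on the log2 scale. Of the 6 markers of each zone, 1 periportal marker rose and 0 fell, and 0 pericentral markers rose and 1 fell (limma, adjusted p = 0.0144 and 0.0378). Before adjustment 3 periportal markers were higher and 1 lower, and 0 pericentral markers were higher and 2 lower, at p under 0.05 (limma). Among periportal markers Cyp2f2 (-0.20) and Hsd17b13 (-0.12) were below 0, and among pericentral ones Glul was at -0.03 and Oat at 0.10. Summed RNA-seq levels of the periportal list were 160 to 162 RPKM with vehicle and 179 to 193 with GW4064, and of the pericentral list 98.1 to 100.3 and 83.5 to 83.8. The part of zonation in the thioesterase values was not tested.

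The genes most like the clustered members were sought over the 8 libraries, by the root mean square difference from the mean log2 profile of Acot1, Acot2, Acot3 and Acot4, each assay centred on its own mean. Of 8933 candidates the nearest were Dbi (0.112), which encodes the acyl-CoA binding protein, Por (0.113), the electron donor of microsomal cytochrome P450 enzymes, Atl2 (0.128), a GTPase that shapes the endoplasmic reticulum, Tor1a (0.130), an ATPase of the same organelle, and Trib3 (0.131), a stress-induced pseudokinase. The median candidate was at 0.358. Dbi changed by 0.31 in RNA-seq (adjusted p = 0.207), by 0.47 in WT GRO-seq and by 0.21 in KO, and Por by 0.55 (adjusted p = 0.0309, limma), 0.87 and 0.37. Among the members themselves Acot4 was nearest to the mean profile (0.124), followed by Acot1 (0.206), Acot12 (0.229), Acot2 (0.263), Acot8 (0.277), Acot13 (0.30) and Acot3 (0.318). Acot12 thus lay nearer than Acot2, and all 3 genes from outside the cluster nearer than Acot3. A gene with no change would lie at 0.304, so Acot13 was about as near as that. Pearson r with the mean profile was 0.95 for Acot4, 0.85 for Acot3, 0.83 for Acot1 and 0.52 for Acot2. For Acot12, Acot8 and Acot13 it was 0.70, 0.46 and 0.23. Acot1 to Acot4 form part of that profile, which favours them in both measures.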

How the data were processed

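Livers of mice were profiled by RNA-seq (4 libraries) and GRO-seq (4 libraries). Mapping was to mm10 with STAR (2.7.3a, per the submitters' notes on processing), and the authors deposited RPKM per gene made with HOMER. The notes also name bcl2fastq and FastQC. The row length equals end minus start in 24932 of 25124 rows and in all 10 members, so introns are counted, and values were not normalised again. Multiplying RPKM by row length and the rebuilt library total returned read numbers that were whole to within 0.15 in at least 99.99% of values that could be tested. Intervals on reads are exact 95% binomial intervals that cover counting error only, except that the WT and KO ratios were compared by a Wald interval on the reads. Reads are not independent molecules.

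RNA-seq genes whose mean reached 0.5 RPKM were fitted with limma 3.58.1 in R 4.3.3 as log2(RPKM + 0.1), eBayes with trend=TRUE, treatment as the only term and two-sided p-values adjusted by Benjamini-Hochberg over all genes tested. Fold changes are on that log2(RPKM + 0.1) scale and come out too small for low genes. GRO-seq genes had the same filter and pseudocount over the 4 GRO-seq libraries; ratios called folds use RPKM alone. A 1.5-fold difference counted where either library had 20 or more reads. Alternatives were other pseudocounts and filters, quantile normalization, median centring, trend=FALSE, a replicate block, leaving out each library, limma-voom on rebuilt reads, rows of at least 300 bases and the 6 clustered rows summed. The scripts were tested on simulated RNA-seq data of 11408 genes, with a dispersion of 0.000937. Recovery of genes with more spread between libraries, such as Acot3, was not simulated. Of the genes changed 1.5-fold, limma recovered 28.4% and limma-voom 77.6%. At 2-fold the shares were 71.6% and 91.0%, and at 4-fold 89.4% and 97.0%. Of 11208 unchanged genes, limma called 40 and limma-voom 0. The changed genes numbered only 67 at 1.5-fold, 67 at 2-fold and 66 at 4-fold. False calls were thus a larger share of the limma calls than the threshold of 0.05 aims for. A call by limma, that of Acot1 included, can therefore be false, and a gene that limma did not call can still have changed by 1.5-fold. Same-numbered RNA-seq libraries did not deviate together, so numbers were not treated as pairs.

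All 10 members are named, with the genes of each list that passed the threshold or had a small p, at most 6 a list (some that meet this are not printed). Nr1h4, Nr0b2, Abcb11, rows next to or overlapping members and the 5 genes nearest in profile are named too. The hepatocyte markers named, albumin among them, and the zone markers that did not pass were added after their values were seen. The members and lists were chosen with earlier results of these data known. Promoters came from RefSeq and transcripts from GENCODE M21 (both GRCm38), compared with Python 3.11.15 and Biopython 1.88. Acot6 and Acot13 had no promoter entry. Protein sequences were not used here.

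With no record in the sources used here of separate processing days, p-values measure the spread between the 2 libraries of each group. Overlapping and near-identical genes may share reads where the counting did not separate them.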

Additional observations from a re-analysis of the deposited data

Results flagged for a closer look

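For 3 members the GRO-seq ratios of GW4064 over vehicle pointed in opposite directions in WT and KO liver. Acot2 had a log2 ratio of 0.48 in WT and -0.060 in KO, Acot8 had 0.39 and -0.030, and Acot13 had -0.031 and 0.046. After median centring only Acot2 kept opposite directions: Acot8 in KO was then at 0.0095, and Acot13 was at 0.063 in WT and 0.085 in KO. Each rests on 1 library per condition, and the difference was not tested. The counting interval of the difference included 0 for Acot2 (-0.21 to 1.38) and for Acot13 (-0.57 to 0.40), and lay just above 0 for Acot8 (0.01 to 0.88).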

How the results depend on the processing

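In RNA-seq 374 genes were called (limma). The count was 128 with no filter, 734 with rows of at least 300 bases and 1003 with limma-voom, and 0 to 43 when a library was left out. The 43 came without vehicle replicate 1, and without any of the other 3 libraries 0 genes were called, with 1590 to 1958 at an unadjusted p under 0.05. With the replicate number as a block 0 genes and 0 members were called, with 2327 genes at an unadjusted p under 0.05, and Acot1 had an adjusted p of 0.0848. Deviations of same-numbered libraries had a correlation of -0.02 over 11408 genes. The members called numbered 1. They numbered 0 with a filter at 0.1 RPKM, with no filter, with quantile normalization, with trend=FALSE, with the 6 clustered rows summed, and in each fit without a library (0 to 0), and 2 with limma-voom and with limma-voom on the summed rows. In the settings that called 0 members, 3 to 6 of them (the sum included) had an unadjusted p under 0.05 (limma). Where a library was left out, the lone library of its group was assumed to vary like the other group. Acot1 kept a positive change in all 16 alternatives, from 0.57 to 0.72, and its adjusted p ran from 0.00599 to 0.188, under the threshold in 7 of them. No RNA-seq change of a tested member turned sign.

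In GRO-seq with the 6 clustered rows summed, 1 feature passed 1.5-fold in WT instead of 2 members, and 0 in KO instead of 1. With 1 RPKM added, 1 member instead of 2 passed between KO and WT, with vehicle and with GW4064, and with 0.01 RPKM added 3 passed with GW4064, Acot2 being the addition. Of 216 values of single members under alternatives, 198 kept their direction and either their RNA-seq call status or a GRO-seq ratio within counting error. Such a GRO-seq ratio could still cross 1.5-fold. Acot3 in WT did so under median centring (log2 0.53 to 0.63), so that 3 members passed for GW4064 over vehicle there. Another 9 values lost a call, 2 gained one and 3 moved beyond counting error. The other 4, all GRO-seq ratios near 0 and within counting error, turned sign under median centring: Acot13 in WT (0.063) and Acot8 in KO (0.0095) for GW4064 over vehicle, and Acot2 (0.058) and Acot13 (0.013) for KO over WT with vehicle. Depth limits Acot5 and Acot6, which had at most 33 reads in a library, and 1 library per condition limits every GRO-seq ratio. Clustered genes share read-length stretches, and rows hold introns, so values are not mature RNA alone.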
